A study of Arabidopsis thaliana with 9 samples.

Results

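Enzymes of the methionine and S-adenosylmethionine cycle were among the plant proteins whose cDNAs yeast colonies carried after a two-hybrid screen. The members are 8 Arabidopsis genes of 10224 in the table. They are the S-adenosylmethionine synthetases SAM1 (AT1G02500), SAM2 (AT4G01850), MAT3 (AT2G36880) and MTO3 (AT3G17390), the methionine synthases MS1 (AT5G17920), MS2 (AT3G03780) and MS3 (AT5G20980), and the adenosylhomocysteinase SAHH1 (AT4G13940). They were chosen by enzyme name with their read levels under the 3 baits already known, so levels between baits are given as a description without a test. Of the 8, 7 had a row in the table and all 7 passed the filter on low values, and MS3 had none and counts as not detected.

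The screen asked which library proteins, the preys, bring a bait protein and a split transcription factor together so that the yeast can grow on medium lacking histidine. SCAB1, one bait, is an actin-bundling protein of plants. The others, PKS5 and SOS2, are related kinases regulated through calcium sensors. Every bait was screened in 3 libraries, with recovery for 0 h in replicate 1, 2 h in replicate 2 and 4 h in replicate 3. All 9 libraries came from the same selection, SD-Trp-Leu-His plates to which 3-AT had been added at 1 mM, and over 3000 colonies went into each. The compound 3-AT inhibits an enzyme of histidine synthesis. None of the 9 is an unselected library.

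The enzymes form a short metabolic circle. Methionine synthase passes a methyl group from a folate to homocysteine and makes methionine, and S-adenosylmethionine synthetase joins methionine to adenosine from ATP. The product, S-adenosylmethionine, is the methyl donor for DNA, lignin precursors and phospholipid head groups in plants, and the source of ethylene and polyamines. Once its methyl group is used, adenosylhomocysteinase splits the remaining adenosylhomocysteine, an inhibitor of methyltransferases, into homocysteine and adenosine, and the circle closes.

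Libraries held 1640114 to 3288437 reads. Levels are CPM, reads of a gene scaled to a library total of 1000000, and the upper limit that 0 reads leave, taken as 3 reads, was 0.912 to 1.83 CPM. That limit covers counting error only, since reads are PCR copies. For MS3 it is the upper bound in every library if its missing row means 0 reads. The number of colonies with a prey and the number of copies per colony cannot be told apart in reads. Fragments holding vector sequence were enriched, per the series' design text, so CPM was not divided by gene length and gives shares of reads. The files also count distinct reads, and that column of SCAB1 replicate 3 was left out because it repeats the column of SCAB1 replicate 2 in all 10224 genes. The labels do not say whether libraries of a bait had their own cultures, so p-values measure the spread between these libraries, which may be technical. The 3 libraries of a bait also differ in recovery time. That difference is part of each SD and of the spread used to compare baits.

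Together the 7 detected enzymes took 8.32% of the reads with SCAB1 (SD 0.652, n = 3), 3.27% with SOS2 (SD 0.396, n = 3) and 0.0898% with PKS5 (SD 0.0478, n = 3). Of distinct reads, which count each different read once, they took 1.37% with SCAB1 (n = 2), 1.37% with SOS2 (n = 3) and 0.760% with PKS5 (n = 3). With SCAB1 nearly all of their reads were of SAM1 and MS2, which did not hold for distinct reads. In CPM, all 7 enzymes stood above their PKS5 levels with SOS2, SAM1 far above the others. With PKS5 no enzyme passed 419 CPM in any library.

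**Figure D1:**
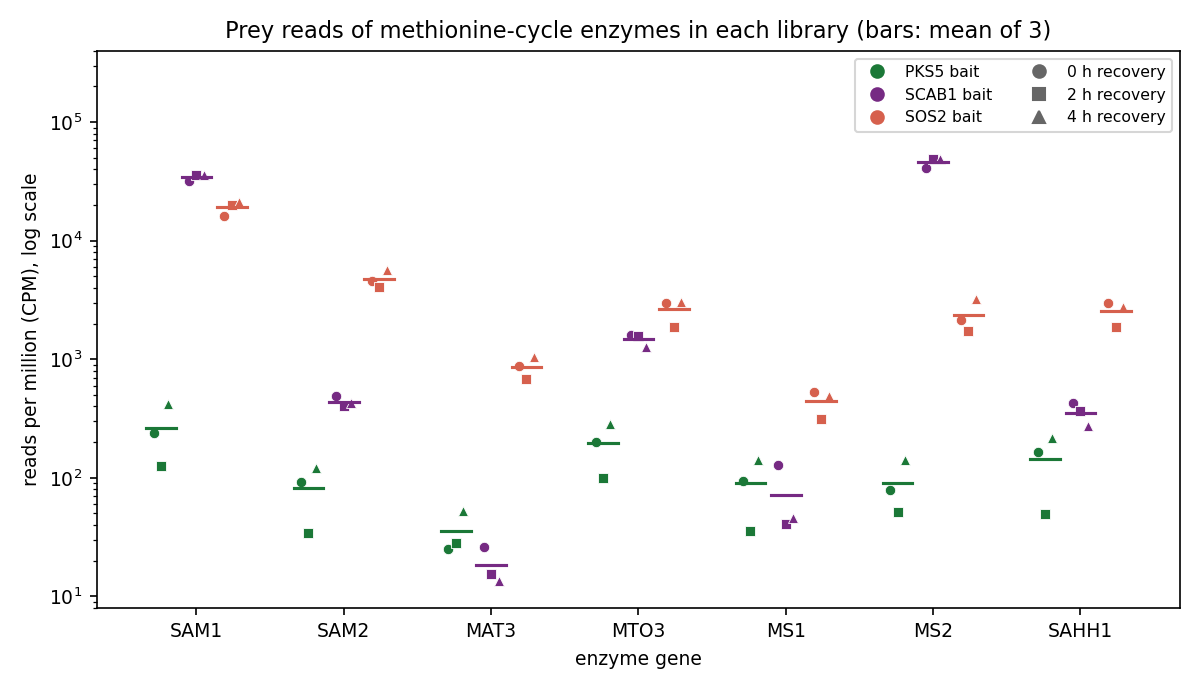
Each point is the CPM (log axis) of an enzyme gene in 1 library, with colour for the bait and shape for the recovery time, and bars are means of 3 libraries. SAM1 and MS2 with SCAB1 lie between 31743 and 49066 CPM, while the PKS5 points lie between 25.1 and 419 CPM.

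SAM1 had the most reads of the synthetases with every bait. It stood at 239, 125 and 419 CPM in PKS5 replicates 1, 2 and 3. In SCAB1 it stood at 31743, 35983 and 35957 CPM, and in SOS2 at 16138, 20149 and 21164 CPM. The 3 groups did not overlap, in the order SCAB1, SOS2, PKS5. The mean of 34561 ± 2441 CPM with SCAB1 (SD, n = 3) was 133 times that with PKS5, 261 ± 148, and 1.80 times that with SOS2, 19150 ± 2658. By reads SAM1 ranked 9 of all genes in each SCAB1 library and 4 or 5 in the SOS2 libraries, and between 113 and 169 with PKS5.

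SAM2, the close copy of SAM1, followed another order. It had 92.4, 34.0 and 121 CPM in PKS5, 487, 402 and 425 CPM in SCAB1, and 4580, 4049 and 5618 CPM in SOS2. Its groups did not overlap either, but SOS2 came first, with a mean 10.8 times that with SCAB1 and 57.6 times that with PKS5. SAM1 and SAM2 are similar in sequence and the sources used here do not say how reads of similar genes were divided, so their split is uncertain. For 100 reads of SAM1 there were 1.53, 1.12 and 1.18 reads of SAM2 in the SCAB1 libraries. There were 28.4, 20.1 and 26.5 in the SOS2 libraries and 38.7, 27.3 and 28.9 in the PKS5 libraries. The SCAB1 ratios were thus below all others, by more than the range within any bait.

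MTO3, the synthetase whose mutants over-accumulate methionine, had 200, 99.5 and 286 CPM in PKS5. It had 1590, 1571 and 1274 CPM in SCAB1 and 2997, 1879 and 3014 CPM in SOS2. The order was SOS2, SCAB1, PKS5 without overlap, and the SOS2 mean was 1.78 times that of SCAB1 and 13.5 times that of PKS5. MAT3, a synthetase known for its role in pollen, was the lowest of the 4 with each bait. It had 870, 687 and 1038 CPM in SOS2, 25.1, 28.1 and 52.6 CPM in PKS5, and 26.0, 15.3 and 13.4 CPM in SCAB1. The SOS2 libraries were all above the rest, while those of PKS5 and SCAB1 overlapped.

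The synthetases therefore divided their reads differently by bait, with the same uncertainty about how reads of similar genes were divided. SAM1 held 94.7 ± 0.834% of the reads of the 4 synthetases with SCAB1, 69.9 ± 4.93% with SOS2 and 44.7 ± 2.58% with PKS5 (SD, n = 3 each). MTO3 held 34.4 ± 1.71% with PKS5 and 4.07 ± 0.660% with SCAB1. SAM2 held 17.3 ± 1.91% with SOS2 and 1.21 ± 0.202% with SCAB1. In distinct reads the division was flatter. SAM1 then held 53.4 to 56.7% in the 2 SCAB1 libraries that could be used, 40.7 to 45.0% in SOS2 and 37.5 to 42.9% in PKS5. The SCAB1 range still lay above the other 2.

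**Figure D2:**
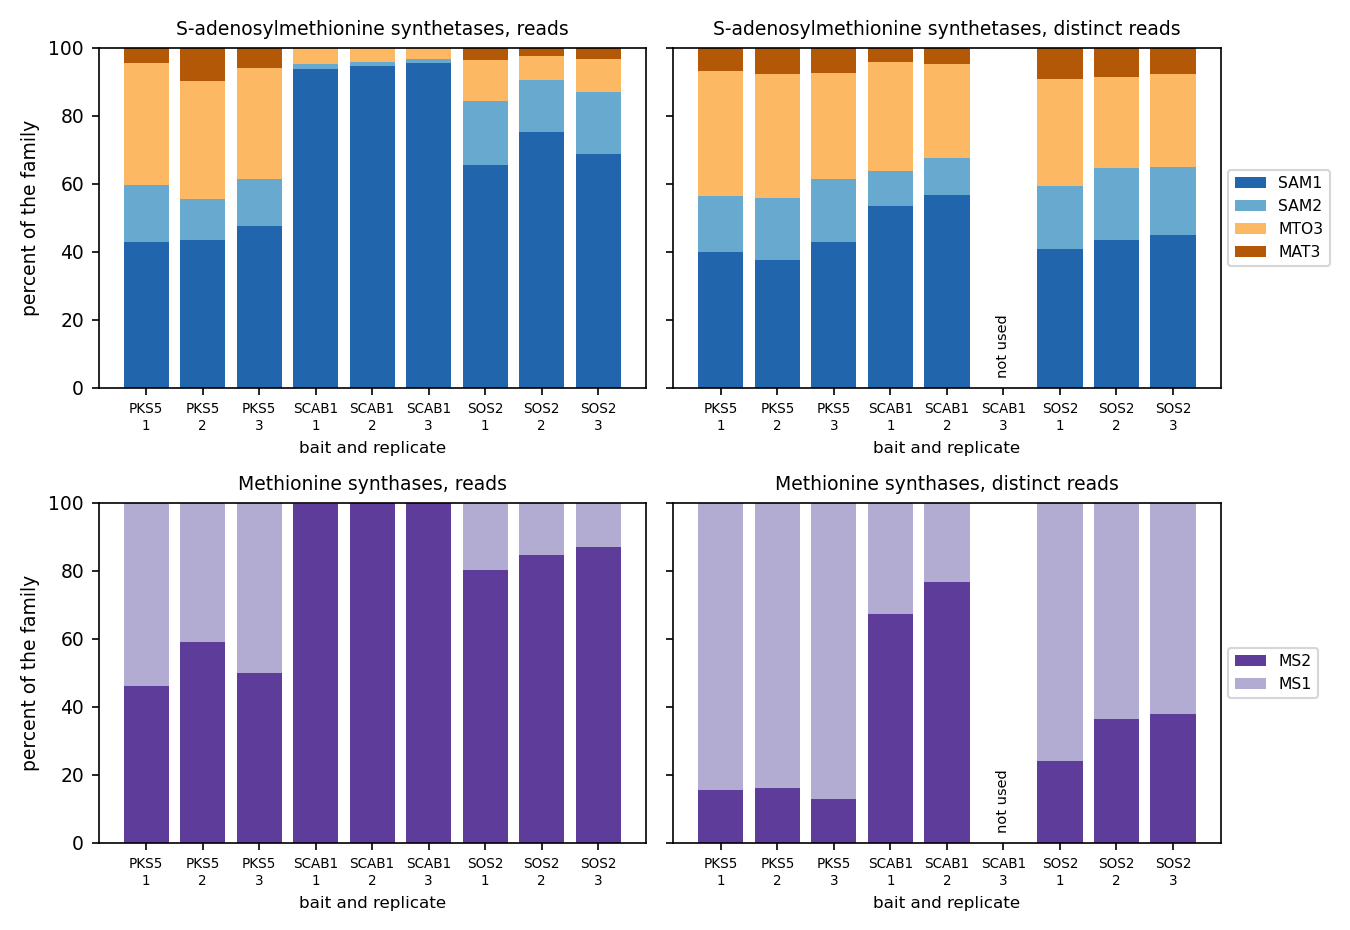
Stacked bars give the percent of a family's reads (left) or distinct reads (right) that each isoform held, 1 bar per library, with synthetases above and methionine synthases below. MS2 fills 99.7 to 99.9% of the methionine synthase reads with SCAB1 and 46.0 to 59.1% with PKS5. How reads of similar genes were divided is not known.

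MS2, a cytosolic methionine synthase, had 79.6, 51.5 and 141 CPM in PKS5, 41255, 48481 and 49066 CPM in SCAB1, and 2137, 1728 and 3223 CPM in SOS2. Its groups did not overlap, and the SCAB1 mean of 46267 ± 4351 CPM (SD, n = 3) was 510 times that of PKS5, 90.8 ± 45.8, and 19.6 times that of SOS2, 2363 ± 773. The first was the largest fold between any pair of baits among the 7 enzymes. In raw reads these were 168, 156 and 295 with PKS5 and 82566, 110891 and 80474 with SCAB1. MS2 ranked 5 or 6 of all genes in the SCAB1 libraries, 49 to 80 in those of SOS2 and 270 to 415 in those of PKS5.

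MS1, the other cytosolic methionine synthase, had 93.3, 35.7 and 142 CPM in PKS5 and 129, 41.1 and 45.7 CPM in SCAB1. Those groups overlapped. In SOS2 it had 530, 313 and 489 CPM, above every library of the other baits, and the mean was 4.91 times that of PKS5. For 100 reads of MS2 there were 0.312, 0.0848 and 0.0932 reads of MS1 with SCAB1, against 69.2 to 117 with PKS5 and 15.2 to 24.8 with SOS2. How reads were divided between MS1 and MS2 is not stated either, so this split is uncertain too. MS3, the plastid methionine synthase, had no row and counts as not detected.

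SAHH1, the adenosylhomocysteinase, had 164, 49.2 and 217 CPM in PKS5, 426, 365 and 274 CPM in SCAB1, and 2999, 1862 and 2767 CPM in SOS2. The order was SOS2, SCAB1, PKS5 without overlap. The SOS2 mean was 7.16 times that of SCAB1 and 17.7 times that of PKS5, and SCAB1 was 2.47 times PKS5. The means were 2543 ± 601, 355 ± 76.7 and 143 ± 85.7 CPM (SD, n = 3).

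Across the 7 detected enzymes, every SOS2 library was above every PKS5 library for 7, an arrangement that 25.6% of the 3811 tested genes had. Every SCAB1 library was above every PKS5 library for 5, against 11.4% of tested genes, and MAT3 and MS1 overlapped. Between SCAB1 and SOS2, 2 enzymes were higher with SCAB1, against 8.97% of tested genes, and 5 were higher with SOS2, against 25.0%. The members were chosen with these levels in view, so the shares stand beside each other as a description. The comparisons also share libraries. These arrangements are in CPM of reads. With distinct reads scaled to the library total, MS1 overlapped between SOS2 and PKS5, and SAM1 and MTO3 overlapped between SCAB1 and SOS2. On that scale SAHH1 was lower in the usable SCAB1 libraries than in every PKS5 library. MAT3 and MS1 then no longer overlapped between SCAB1 and PKS5, with MAT3 higher and MS1 lower with SCAB1.

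Distinct reads put the levels on another scale. SAM1 had 39 to 53 distinct reads with PKS5, 122 and 173 with SCAB1 and 153 to 201 with SOS2. MS2 had 5 or 6 with PKS5, 62 and 78 with SCAB1 and 17 to 29 with SOS2, so MS2 rested on fewer distinct reads than SAM1 in each of the 8 libraries. MS1 had 26 to 34 with PKS5, 19 and 38 with SCAB1 and 46 to 54 with SOS2, more than MS2 with both kinase baits. These counts are not scaled, and libraries held 22024 to 31294 distinct reads with PKS5, 22616 and 37151 with SCAB1 and 37497 to 47817 with SOS2. Scaled to those totals, the MS1 values with PKS5 and SOS2 overlapped, and so did the SAM1 values with SCAB1 and SOS2, unlike their CPM. SAHH1 had 35 to 55 distinct reads with PKS5 and 27 and 49 with SCAB1, ranges that overlapped although its CPM did not. Scaled to the total of distinct reads, its mean was lower with SCAB1 (1256 CPM of distinct reads) than with PKS5 (1772), the reverse of its order in reads. MTO3 had 37 to 49 distinct reads with PKS5, 60 and 103 with SCAB1 and 109 to 124 with SOS2. Scaled in the same way, its means were 1553, 2713 and 2763 CPM of distinct reads, so the 1.78-fold gap between SOS2 and SCAB1 was not seen on that scale.

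The number of reads behind a distinct read differed between enzymes and baits. A distinct read of MS2 stood for 1059 and 1789 reads with SCAB1, against library averages of 53.9 and 101. For SAM1 it stood for 367 and 675 reads. The other 5 enzymes were below the library average in both SCAB1 libraries. With PKS5, 21 of 21 values were below the average of their library, MS2 being nearest at 28.0, 31.2 and 59.0 reads against 67.4, 137 and 77.3. With SOS2, 15 of 21 values were above it, and MS1 was below in each library. Between 1.37 and 12.9% of all tested genes were above the average of a library.

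**Figure D3:**
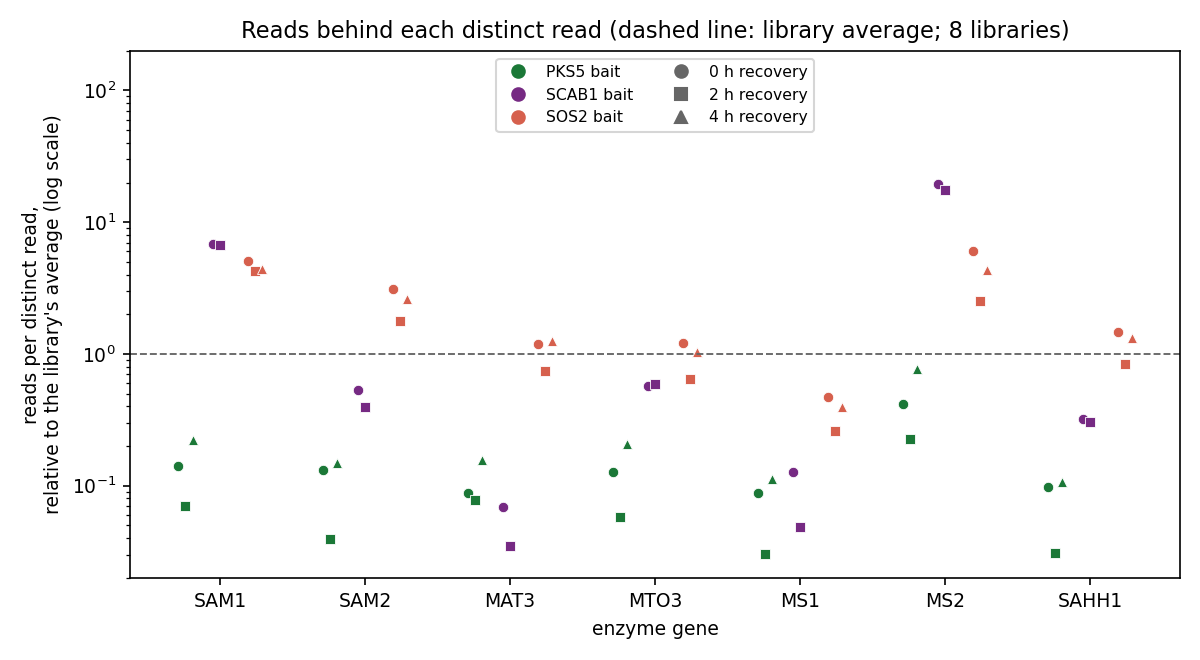
Each point is the number of reads per distinct read of an enzyme in 1 library, divided by the average of that library (dashed line at 1, log axis), for the 8 libraries with a usable column. MS2 and SAM1 with SCAB1 are above the line and all PKS5 points are below it.

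The patterns over libraries were also compared, as Pearson's r of log2(CPM + 1) over 9 libraries, a description in which the 3 libraries of a bait share that bait. SAM2 and SAHH1 were most alike of the enzyme pairs (r = 0.986), then SAM1 and MTO3 (0.941). MS2 was nearest to SAM1 (0.925) and had r = -0.112 with MAT3 and -0.039 with MS1. Of all tested genes, the 3 most like SAM1 were GAPC1 and GAPC2, cytosolic glyceraldehyde-3-phosphate dehydrogenases, and AT1G33810, with r of 0.997 to 0.998. Most like MS2 were ASPG1, an aspartic protease of guard cells, AT3G14240 and AT4G26860, with r of 0.988 to 0.992. Most like SAM2 were the actin ACT7 (0.996), the cysteine protease RD21A and the ubiquitin-activating enzyme UBA1 (both 0.992). RD21A (0.997) was also nearest to SAHH1, before the chloroplast RNA-binding protein CRB and the nitrate reductase NIA2. MTO3 was nearest to AT4G09160 (0.998), the peroxiredoxin TPX1 and AT1G55290.

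Other genes of the pathway were taken from a list of 45 that supply methionine or its methyl group, recycle its products or use S-adenosylmethionine. Of these, 33 had a row and 24 were tested, and 18 of the 24 were called between some pair of baits, as were 48.5% of all tested genes. The list was chosen with earlier results of these data known, so its counts stand beside such shares as a description. In contrast to SAM1 and MS2, no gene of the list exceeded a mean of 905 CPM with any bait. Calls are adjusted p-values under 0.05 by limma-voom over all 3811 tested genes. A gene passes the filter with about 4.74 CPM in 3 libraries, so a gene can enter through the bait where it is high.

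With SOS2 against PKS5, 9 genes of the list were higher (24.8% of all tested genes were) and 4 were lower (7.16%). The median log2 difference was 0.44 for the list and 0.18 for all tested genes. Scaled by library size alone, 8 genes of the list were higher and 1 was lower, and the median of all tested genes was 0.53. SHM4, a cytosolic serine hydroxymethyltransferase that loads folate with a carbon unit, was the highest, at 905 ± 339 CPM with SOS2, 17.2 ± 9.05 with PKS5 and 9.01 ± 5.20 with SCAB1 (SD, n = 3). Its log2 difference was 5.47 from PKS5 (SE 0.45, adjusted p = 2.05e-09 by limma-voom). SAHH2, the second adenosylhomocysteinase, stood at 422 ± 78.3, 33.6 ± 15.1 and 18.0 ± 12.0 CPM in the same order of baits (log2 difference 3.45 from PKS5, SE 0.44, adjusted p = 7.59e-07 by limma-voom). With distinct reads the SHM4 and SAHH2 differences from PKS5 shrank to 1.56 and 1.02, both still called. SOS2 was also first for SAHH1. How reads of SAHH1 and SAHH2, which are close copies, were divided is uncertain too.

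The Yang cycle enzyme ARD2, an acireductone dioxygenase, rose to 312 ± 154 CPM with SOS2 from 20.7 ± 14.9 with PKS5 (adjusted p = 1.66e-06 by limma-voom). MGL, which breaks methionine down, rose to 205 ± 33.0 from 34.7 ± 14.0 CPM (adjusted p = 5.68e-05 by limma-voom). Distinct reads ended the calls of ARD2 (adjusted p = 0.402, over all alternatives from 1.54e-08 to 0.402) and MGL (adjusted p = 0.203, from 1.32e-05 to 0.203). SAMC1, the carrier that takes S-adenosylmethionine into plastids and mitochondria, MTHFR2, a methylenetetrahydrofolate reductase that makes the folate used by methionine synthase, and MET1, the maintenance DNA methyltransferase, were higher by 2.85, 3.32 and 2.00 log2 units. They stood at 56.8 ± 27.8, 25.5 ± 9.23 and 39.5 ± 22.8 CPM with SOS2. With PKS5 they stood at 7.68 ± 6.09, 1.92 ± 0.926 and 7.66 ± 4.15 CPM (adjusted p = 7.3e-05, 0.00037 and 0.000657 by limma-voom). The PKS5 level of MTHFR2 was near the limit that 0 reads leave, and MTHFR2 reached the filter level in 4 libraries. Leaving genes that took over 5% of a library out of the library size ended the call of MET1 (adjusted p = 0.128, over all alternatives from 0.000181 to 0.128).

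The lignin methyltransferase CCoAOMT1 was higher with both SOS2 and SCAB1, at 163 ± 62.2 and 75.0 ± 20.1 CPM, than with PKS5, at 25.2 ± 15.6 CPM (log2 differences 2.55 and 1.99, adjusted p = 1.67e-05 and 0.000305 by limma-voom). With distinct reads these calls were lost and the SOS2 difference turned to -0.13 (adjusted p = 0.661, over all alternatives from 2.61e-06; for SCAB1 adjusted p = 0.837, from 8.95e-05). Library size alone also ended the SCAB1 call (adjusted p = 0.133).

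MTHFR1 went the other way from its relative MTHFR2. It had 95.6 ± 33.1 CPM with PKS5, 127 ± 80.7 with SCAB1 and 22.0 ± 10.6 with SOS2, a log2 difference of -2.55 between SOS2 and PKS5 (SE 0.43, adjusted p = 3.16e-05 by limma-voom). The 3 other genes called lower with SOS2 than with PKS5 were ADK1, an adenosine kinase, HMT2, a homocysteine methyltransferase, and SPDS1, a spermidine synthase, which was named after its values were seen. ADK1 stood at 38.1 ± 23.0 against 59.8 ± 36.6 CPM and HMT2 at 14.7 ± 13.4 against 22.1 ± 10.1 CPM. With distinct reads the ADK1 difference turned from -0.97 to 0.40 (adjusted p = 0.232 by limma-voom). Both calls ended with library size alone and when PKS5 replicate 2, PKS5 replicate 3 or SOS2 replicate 2 was left out (adjusted p over all alternatives 1.62e-05 to 0.821 and 0.000443 to 0.725). The SPDS1 call, at a log2 difference of -1.13 (adjusted p = 0.0444 by limma-voom), ended with the replicate block (adjusted p = 0.0533), with library size alone and without PKS5 replicate 2, SCAB1 replicate 2 or SCAB1 replicate 3 (adjusted p over all alternatives 0.00874 to 0.805). The call of ARD1, a second acireductone dioxygenase called higher with SOS2, did not survive scaling by library size alone, nor the removal of PKS5 replicate 2 or 3, SCAB1 replicate 1, or SOS2 replicate 2 or 3 (adjusted p over all alternatives 0.0143 to 0.526). Its log2 difference was 1.23, and 1.65 with library size alone (adjusted p = 0.197 by limma-voom).

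With SCAB1 against PKS5, 4 genes were higher (12.1% of tested genes) and 1 was lower (6.25%), with medians of -0.08 for the list and -0.05 for all tested genes. Library size alone left 2 higher and 0 lower, and library size without genes above 5% left 2 and 2, with a median of all tested genes of -0.89 in the latter. DEP1 (AT5G53850), the dehydratase-enolase-phosphatase of the Yang cycle, had 245 ± 61.1 CPM with SCAB1, 1.92 ± 0.926 with PKS5 and 5.64 ± 4.41 with SOS2 (log2 difference 7.21 from PKS5, SE 0.63, adjusted p = 3.57e-09 by limma-voom). SHM1, the serine hydroxymethyltransferase of photorespiration in mitochondria, had 153 ± 25.2 CPM against 12.5 ± 5.31 and 20.8 ± 9.51 (log2 difference 3.97 from PKS5, SE 0.43, adjusted p = 1.18e-07 by limma-voom). Distinct reads ended the call of SHM1 (adjusted p = 0.236, over all alternatives from 7.4e-12), and its difference from SOS2 then turned to -0.13. HMT2 had 68.3 ± 3.96 CPM and was higher by 1.96, and with library size alone by 1.75, no longer called (adjusted p = 0.178, over all alternatives from 0.000155 to 0.328). The 1 lower gene was SPDS1, at a log2 difference of -1.96 (adjusted p = 0.0102 by limma-voom), a call that ended with library size alone and without SCAB1 replicate 1 (adjusted p over all alternatives 0.00485 to 0.333).

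With SCAB1 against SOS2, 5 genes were higher (15.1% of tested genes) and 11 were lower (25.5%), with medians of -0.70 and -0.25. The higher genes were DEP1, SHM1, HMT2, MTHFR1 and ADK1, with log2 differences of 6.22, 3.55, 3.09, 2.90 and 1.15. Among the lower were SHM4, SAHH2 and ARD2, with -6.21, -4.24 and -3.94. Library size alone moved the median of all tested genes to -0.72. Distinct reads ended the calls of SHM1 (adjusted p = 0.772, over all alternatives from 1.52e-18), ARD2 (0.149, from 2.92e-10) and ADK1 (0.179, from 9.19e-05 to 0.627). The ADK1 call also ended with library size alone (adjusted p = 0.627 by limma-voom) and with library size without genes above 5% (0.52). Of the calls named here, those of SHM4, SAHH2, SAMC1, MTHFR1, MTHFR2 and DEP1 held under every alternative run for them, 15 to 17 each. The HMT2 call for SCAB1 against SOS2 also held under all 16 run for it. With distinct reads the differences of SHM4 and SAHH2 were smaller, at -1.55 and -1.29 for SCAB1 against SOS2. Of the genes whose calls held, HMT2, SAMC1, MTHFR1, MTHFR2 and DEP1 did not pass the filter with distinct reads, so their calls were not tested on that measure. SAMC1 and MTHFR2 were also not tested with at least 100 reads. Of the methionine supply enzymes from homoserine to homocysteine, the homoserine kinase HSK, CGS1 and CBL had no row.

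**Figure D4:**
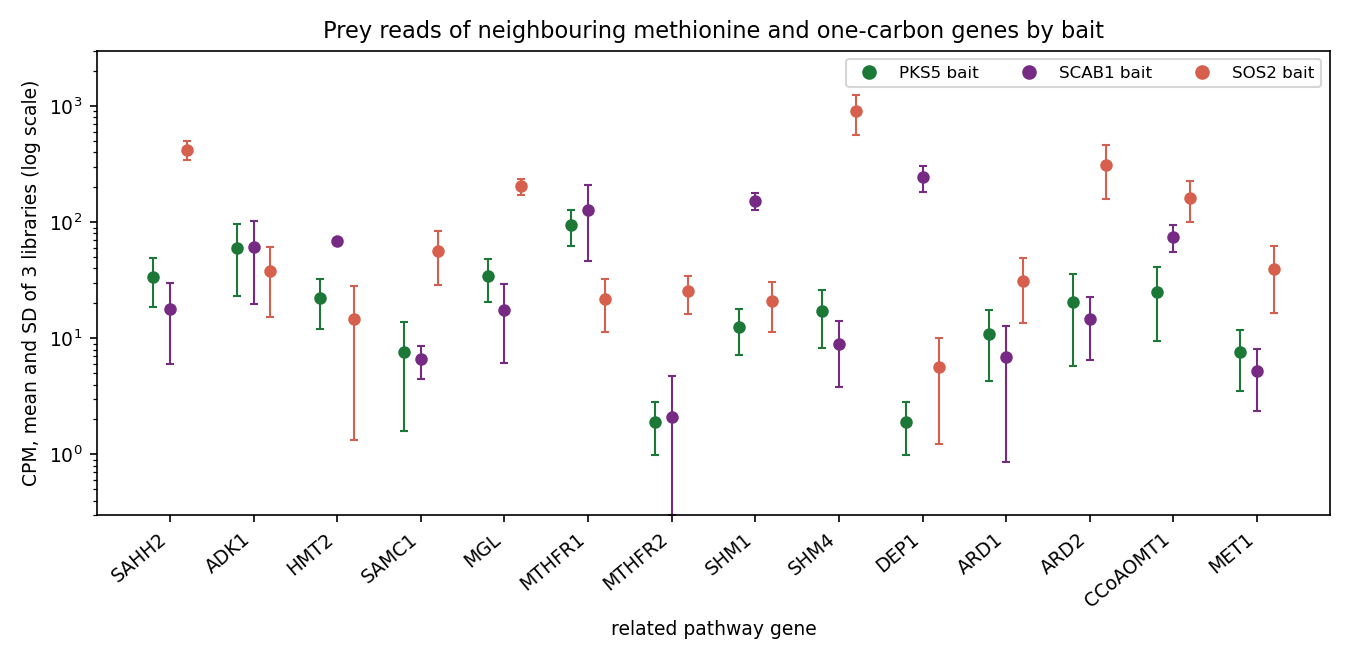
Points are mean CPM of 3 libraries per bait (log axis) and bars the SD, for 14 genes of the pathway list with at least 100 CPM in a bait, or called and at least 20 CPM. The lower bar of MTHFR2 with SCAB1 ends at the axis because its SD exceeds its mean. DEP1 and SHM1 are highest with SCAB1, and SHM4, SAHH2, ARD2 and MGL with SOS2.

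Recovery time was not used to choose the enzymes and was tested, as 0 h against the mean of 2 and 4 h with bait as a block. No call was made. All 7 were lower at 0 h by TMM scaling, with log2 differences from -0.41 in MS1 to -1.31 in MS2. The median of all tested genes was also below 0, at -0.07. MS2 had SE 0.36 and adjusted p = 0.23 by limma-voom, and SAM1, at -1.27, had SE 0.36 and adjusted p = 0.23. The others had adjusted p of 0.263 to 0.734. Of all tested genes 0% were called by limma-voom (0 of 3811), with 375 at an unadjusted p under 0.05.

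In CPM the sign depended on the library. With SCAB1, MS2 was lowest at 0 h (41255 against 48481 and 49066 CPM), and with PKS5 and SOS2 it lay between the other libraries. Scaled by library size alone, the median of all tested genes was 1.21 at 0 h above later, against -0.07 with TMM factors, and 5 of the 7 enzymes turned positive. Relative to that median the enzymes stayed at -0.47 to -1.42, against -0.34 to -1.24 with TMM. With distinct reads they ranged from -0.57 in MS2 to 0.017 in SAHH1 relative to the median, with MTO3 and MS1 within 0.005 of it, and with at least 100 reads MS1 was at 0.05. The TMM factors were 1.39, 1.72 and 2.40 in the 0 h libraries and 0.438 to 1.43 in the later ones, and the part of this spread in the result was not tested. Without PKS5 replicate 3, SAM1 and MS2 were called lower at 0 h (log2 differences -1.52 and -1.58, adjusted p = 0.0257 and 0.0233 by limma-voom, ranges over alternatives 0.0257 to 1 and 0.0233 to 1), and 38 of 3597 genes were. The effect of 0 h was not shown to differ between baits for any enzyme, with adjusted p of 0.877 to 0.999 for the interaction by limma-voom, a fit added after seeing the data.

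**Figure D5:**
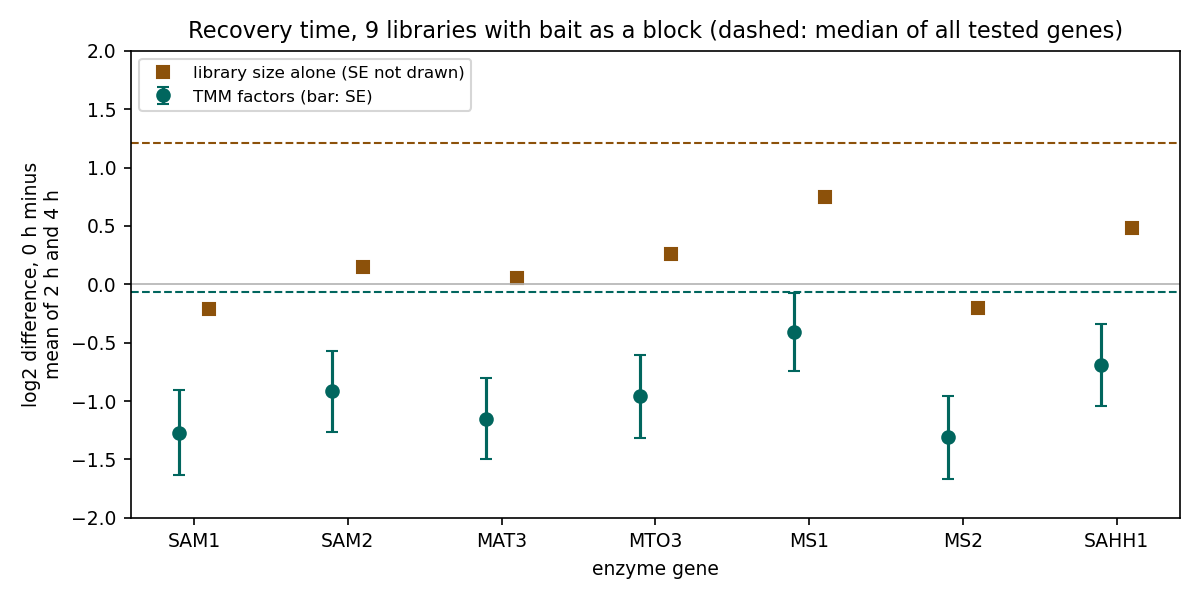
Points are log2 differences of 0 h minus the mean of 2 and 4 h over 9 libraries with bait as a block, scaled by TMM factors (circles, bars SE) or library size alone (squares), and dashed lines are the median of all tested genes at each scaling. At these 2 scalings of reads all 7 enzymes lie below the median line, and none was called.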

How the data were processed

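The 9 libraries are prey inserts amplified from plasmids of selected yeast, sheared, ligated and enriched by PCR for fragments with vector sequence before paired-end sequencing, per the labels' protocols and the series' design text. CASAVA, cutadapt 1.18, HISAT2 and TAIR10 are named in the submitters' processing notes. The sources used here do not say how reads were assigned to genes. The authors deposited raw counts of reads and of distinct reads per gene, and cells marked n.d. were read as 0.

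Members and lists were chosen with earlier results of these data known. Symbols came from the RefSeq table of TAIR10.1 (10201 of 10224 identifiers matched). The filter kept the 3811 genes with 4.74 CPM (10 reads in a library of median size) in 3 libraries and 15 reads in all. limma-voom (limma 3.58.1, R 4.3.3) was run on 9 libraries with recomputed TMM factors, an offset of 0.5 and robust variances, for pairs of baits and for recovery time with bait as a block, with Benjamini-Hochberg adjustment over all tested genes. It was tested on simulated data. Count models were not used because the marks kept the columns from being read as plain counts by the unit check. Levels and figures were made in Python 3.11.15. Named were all members, genes of the pathway list with at least 100 CPM in a bait (20 if called between baits), and the 3 genes most like each member of at least 1000 CPM. Alternatives changed the scaling, filter, read measure, variance, block and libraries.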

Additional observations from a re-analysis of the deposited data

How the results depend on the processing

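Counts of called genes depended on the scaling for recovery time, with 381 for library size alone and 89 once genes above 5% of any library were left out of that size, all higher at 0 h, 1 with no filter and 2 with at least 100 reads, against 0 in the test as reported, and 0 to 38 when 1 library was left out. Distinct reads, tested for 872 genes in 8 libraries, gave 188, 321 and 282 genes for SCAB1 against PKS5, SOS2 against PKS5 and SCAB1 against SOS2, where all reads gave 700, 1217 and 1546, and 1, 3 and 3 genes of the pathway list in place of 5, 13 and 16, with 9 of the list tested in place of 24. At least 100 reads, with 1231 genes, gave 874 genes for SCAB1 against SOS2 and 8 and 9 of the list for SOS2 against PKS5 and SCAB1 against SOS2. The list gave 2 calls for SCAB1 against PKS5 with library size alone, both higher, and 8 for SOS2 against PKS5 without genes above 5% of any library, 7 higher and 1 lower. The split of higher and lower genes for SCAB1 against SOS2 was 259 and 793 with library size alone and 291 and 882 without genes above 5%, against 575 and 971, and for SCAB1 against PKS5 it was 314 and 257 without genes above 5%, against 462 and 238. Leaving out 1 library gave 545 to 782, 956 to 1265 and 1196 to 1529 genes and 4 to 6, 9 to 12 and 13 to 15 of the list.

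The summed level of the enzymes was 7596, 13722 and 13691 CPM of distinct reads with PKS5, SCAB1 and SOS2, against 898, 83190 and 32744 CPM of reads, and 2165, 132838 and 51232 CPM without genes above 5% of any library. With 1 library left out it was 658 to 1136, 81257 to 86957 and 30459 to 33991 CPM. The recovery difference turned to 0.15 in SAM2, 0.057 in MAT3, 0.26 in MTO3, 0.74 in MS1 and 0.48 in SAHH1 with library size alone, and to 0.11, 0.57 and 0.32 in MTO3, MS1 and SAHH1 without genes above 5%. With distinct reads ADK1 turned to 0.40 and CCoAOMT1 to -0.13 for SOS2 against PKS5, and SHM1 to -0.13 for SCAB1 against SOS2. The cause of these changes was not tested.

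Replicate numbers stand for recovery times. Deviations from the bait mean correlated at -0.02 to 0.22 for 9 pairs of the same number and -0.27 to 0.20 for 18 others, and 4 of 9 libraries correlated best with their own number. With the replicate block 769, 1261 and 1702 genes and 6, 12 and 16 of the list were called, and of the named calls that of SPDS1 for SOS2 against PKS5 was lost (log2 difference -1.11, adjusted p = 0.0533 by limma-voom).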
